A study of Homo sapiens with 8 samples.

Results

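The 10 genes described here belong to the BCL2 family, whose proteins decide at the outer mitochondrial membrane whether a cell enters apoptosis. They were chosen by name, as the rows of the expression table whose gene name equals 1 of 10 symbols, and make up 10 of the 61906 genes in that table. The rule itself used no measured value, but the genes were chosen with earlier results of these data known. There are 3 antiapoptotic genes (BCL2, BCL2L1, MCL1), 2 effectors (BAX, BAK1) and 5 BH3-only genes (BBC3, BID, BCL2L11, PMAIP1, BAD). The data came from U251, a human glioblastoma line labelled as wild type from which all 8 libraries were made. Vehicle cultures received DMSO and treated cultures received LLY-283 at 100 nM, a small-molecule inhibitor of the arginine methyltransferase PRMT5, each for 24 h with 4 biological replicates. As an established line kept in culture, U251 holds tumour cells without the stroma, vessels or immune cells of a glioblastoma.

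In the mitochondrial pathway, the effectors BAX and BAK1 assemble into pores in the outer membrane and release cytochrome c, which activates caspases through APAF1. BCL2, BCL-xL (from BCL2L1) and MCL1 hold the effectors and the BH3-only proteins in check. BH3-only proteins carry stress signals: BIM (from BCL2L11), BID and PUMA (from BBC3) bind most antiapoptotic proteins and can activate the effectors, BAD binds BCL2 and BCL-xL, and NOXA (from PMAIP1) binds mainly MCL1. Glioblastoma cells are known to lean on MCL1 and BCL-xL for survival. Much of the control of the family is exerted on proteins, through cleavage, phosphorylation, membrane insertion and degradation, and none of that is measured by RNAseq.

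Poly(A) RNA was sequenced, and the deposited values are TPM (transcript abundances scaled to a fixed total per library), which divide out transcript length, so that levels of different genes can be set side by side, but keep no read number, so that depth is unknown and no counting interval can be given. The number of genes above 0 ran from 24386 to 24757 with vehicle and from 24042 to 24315 with LLY-283. Genes of the mitochondrial genome took about 10.2% or more of the TPM in 7 libraries and 7.19% in LLY-283 replicate 4. All 7 markers fixed for a glioblastoma or astroglial line were above 1 TPM, among them GFAP, VIM and NES, with a summed level of 7293 to 7464 TPM in vehicle and 7025 to 7378 TPM in LLY-283 libraries. That sum is mostly VIM. CD44 rose from 1576 to 1700 TPM (adjusted p = 0.0168, limma), and every other marker of this list had a lower mean with LLY-283. GFAP fell from 809.5 to 679.9 TPM, NES from 482.8 to 428.8 TPM and SOX2 from 103.3 to 85.6 TPM (adjusted p = 0.00082, 0.000731 and 0.000349, limma). The groups of CD44, GFAP, NES and SOX2 did not overlap. With overlapping groups, the mean went from 4301 to 4121 TPM for VIM, from 120.5 to 114.0 TPM for SOX9 and from 4.335 to 3.2075 TPM for S100B. The part of these marker differences in the results for the BCL2 family was not tested. None of the 3 endothelial, 4 epithelial or 5 leukocyte markers reached a mean of 1 TPM, with CD3E at 0 in all libraries, and of 4 neuronal markers SYT1 alone did, at 4.95 TPM. A change in RNA per cell and a change in the make-up of the culture cannot be told apart in such bulk libraries.

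The levels of the 10 genes spanned a wide range, and their order was the same in vehicle and LLY-283 cultures (plot of levels on a log scale). MCL1 stood highest in vehicle cultures at 134 ± 3.83 TPM (SD, n = 4), followed by BAX at 117 ± 5.59 TPM and BAD at 69.1 ± 3.84 TPM. Then came BID at 49.1 ± 2.82 TPM, BCL2L1 at 43.6 ± 1.19 TPM and PMAIP1 at 32.5 ± 1.88 TPM. BAK1 reached 18.5 ± 0.659 TPM, BCL2L11 9.29 ± 0.340 TPM and BBC3 3.64 ± 0.597 TPM. BCL2, after which the family is named, was the lowest at 0.68 ± 0.0294 TPM. In each group the 4 values of every gene lay apart from those of the gene next to it in this order. MCL1 took 28.1% and BAX 24.5% of the summed TPM of the 10 genes in vehicle cultures, and BCL2 took 0.142%.

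**Figure D1:**
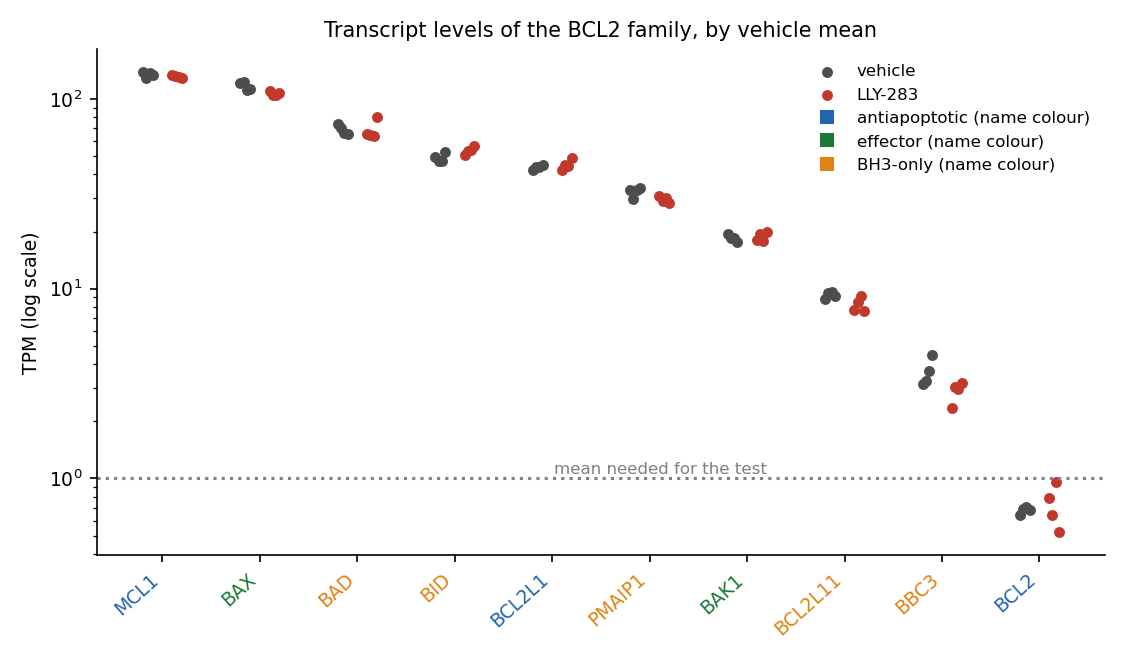
Transcript levels of the 10 BCL2 family genes in TPM on a log scale, ordered by their mean in vehicle cultures, with 1 point per library (4 vehicle, grey; 4 LLY-283, red) and gene names coloured by role. The order runs from MCL1 at 134 TPM to BCL2 at 0.68 TPM, and BCL2 alone lies under the mean of 1 TPM required for testing (dotted line).

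To determine whether LLY-283 altered the expression of the family, each gene with a mean of at least 1 TPM was compared between the 4 LLY-283 and 4 vehicle libraries with limma on log2(TPM + 0.1), with p-values adjusted by the Benjamini-Hochberg method over all 14478 genes tested. A gene was called when its adjusted p-value was under 0.05. BCL2 was under the filter, and the 9 other genes were tested. Of these 9, 1 was called, BAX, which was lower after LLY-283, against 26.2% of all genes tested called in either direction and 17.6% called lower. Lower calls made up 67.1% of all calls, and 49.3% with quantile normalization or 49.2% with median-of-ratios scaling. No member was called higher, against 8.61% of all genes, and none of the 9 passed the stricter rule that also asks for a change above 1.5-fold, against 3.87% of all genes. The share of called members, 11.1%, was under that of all genes. At an unadjusted p-value under 0.05 there were 5 members (BAX, PMAIP1, BID, BCL2L11 and BBC3), of the 9 tested, against 38.6% of all genes. The median log2 fold change of the 9 genes was -0.04, beside -0.05 for all genes tested, with 6 genes lower and 3 higher after LLY-283.

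**Figure D2:**
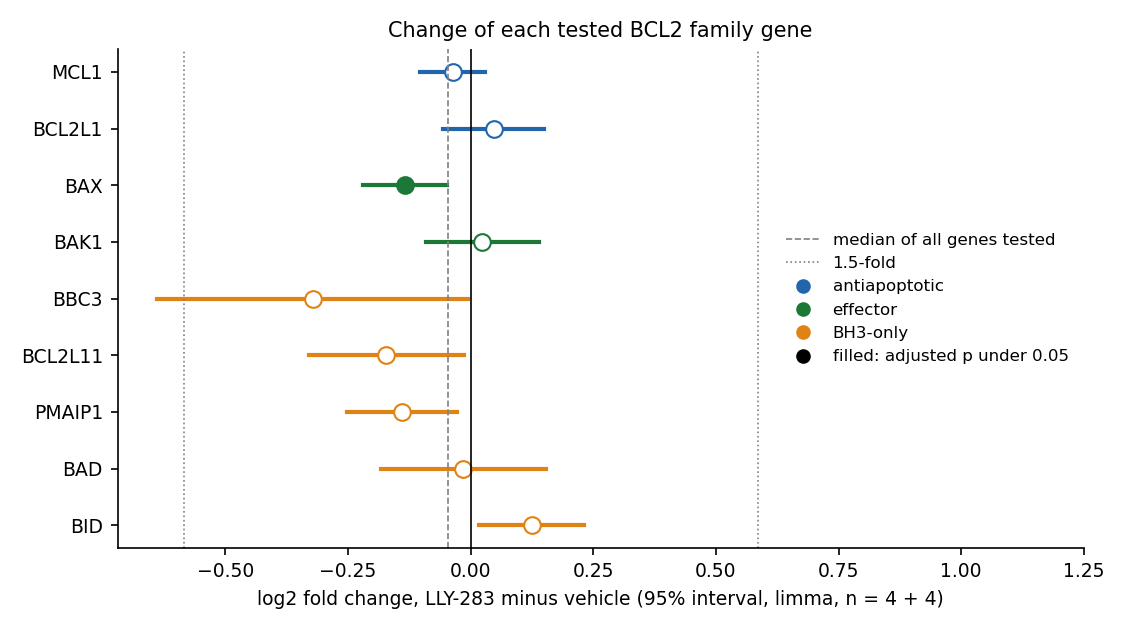
Log2 fold change of the 9 tested BCL2 family genes, LLY-283 minus vehicle, with the 95% interval from limma (4 libraries a group), grouped by role. Only BAX is filled (adjusted p = 0.0294), and the intervals of all genes but BBC3 lie inside the dotted lines at 1.5-fold.

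Among the antiapoptotic genes, differences between the groups were within the spread of the replicates. MCL1 (ENSG00000143384, chr1:150560895-150579738, minus strand), whose protein is short-lived and is renewed from its mRNA, was found at 138.23, 129.38, 136.27 and 133.56 TPM in vehicle replicates 1 to 4 and at 133.74, 132.07, 129.88 and 128.2 TPM with LLY-283. The groups overlapped, and the log2 difference was -0.04 (standard error 0.029, 95% interval -0.10 to 0.03, adjusted p = 0.395, limma). On a linear scale this interval runs from 0.931-fold to 1.02-fold. Positions are from GENCODE release 44 on GRCh38, the genome build of the table.

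BCL2L1 (ENSG00000171552, chr20:31664452-31723989, minus strand) was found at 41.99, 43.72, 43.81 and 44.85 TPM with vehicle and at 42.2, 44.79, 44.56 and 48.79 TPM with LLY-283. Its groups overlapped as well, with the highest value in LLY-283 replicate 4, and the log2 difference was 0.05 (95% interval -0.06 to 0.15, adjusted p = 0.490, limma). These are values of the gene as a whole. BCL2L1 and MCL1 are each known to be spliced into a long antiapoptotic and a short proapoptotic form, and the forms were not separated here.

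BCL2 (ENSG00000171791, chr18:63123346-63320128, minus strand) had 0.64, 0.69, 0.71 and 0.68 TPM with vehicle and 0.79, 0.64, 0.96 and 0.52 TPM with LLY-283. The LLY-283 values lay on both sides of the vehicle values, with a coefficient of variation of 26.2% against 4.33% in vehicle cultures. Without the filter on low values its log2 fold change was 0.06 with an interval of -0.46 to 0.57 (adjusted p = 0.906, limma), too wide to tell a decrease from an increase.

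The effector BAX (ENSG00000087088, chr19:48954815-48961798, plus strand) was the member called. Its values were 121.35, 122.1, 111.04 and 113.36 TPM with vehicle and 109.66, 104.41, 104.42 and 107.66 TPM with LLY-283. The lowest vehicle value, in replicate 3, was above the highest LLY-283 value, in replicate 1, so the groups did not overlap. BAX was the only 1 of the 9 tested members of which this was true, against 29.2% of all genes tested and 19.6% with the LLY-283 values lower. The mean fell from 117 ± 5.59 to 107 ± 2.58 TPM (SD, n = 4 each), 8.91% lower, a log2 difference of -0.13 (95% interval -0.22 to -0.05, standard error 0.038, adjusted p = 0.0294, limma). BAX was lower in all 21 alternative settings and called in 12 of them. It was not called without vehicle replicate 1 (adjusted p = 0.0781), vehicle replicate 2 (0.0774), LLY-283 replicate 2 (0.0768) or LLY-283 replicate 3 (0.0738), nor with median-of-ratios scaling, where the log2 difference was -0.09 (adjusted p = 0.169, limma). With a trend on GC content and length removed the BAX difference was -0.0881 and not called (adjusted p = 0.122, or 0.118 with a replicate block, limma). The call was also lost without a filter on low values (adjusted p = 0.0603) and with eBayes without a trend (0.0594, limma). The single call went to another member in 4 alternatives: to BID, higher, with median-of-ratios scaling and with a trend on GC content and length removed, to PMAIP1, lower, without vehicle replicate 2 and to BCL2L11, lower, without LLY-283 replicate 3. No member was called in 5 alternatives.

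BAK1, the other effector (ENSG00000030110, chr6:33572547-33580293, minus strand), had 19.33, 18.49, 18.42 and 17.72 TPM with vehicle and 18.02, 19.47, 17.78 and 19.98 TPM with LLY-283, with the groups interleaved. A processed copy, BAK1P1, was listed at 0.46 TPM with vehicle and 0.575 TPM with LLY-283. The log2 fold change of BAK1 was 0.02 (95% interval -0.09 to 0.14, adjusted p = 0.765, limma). BAX was therefore 6.33 ± 0.240 times as abundant as BAK1 in vehicle cultures and 5.68 ± 0.359 times with LLY-283 (SD, n = 4 each), in overlapping ranges.

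**Figure D3:**
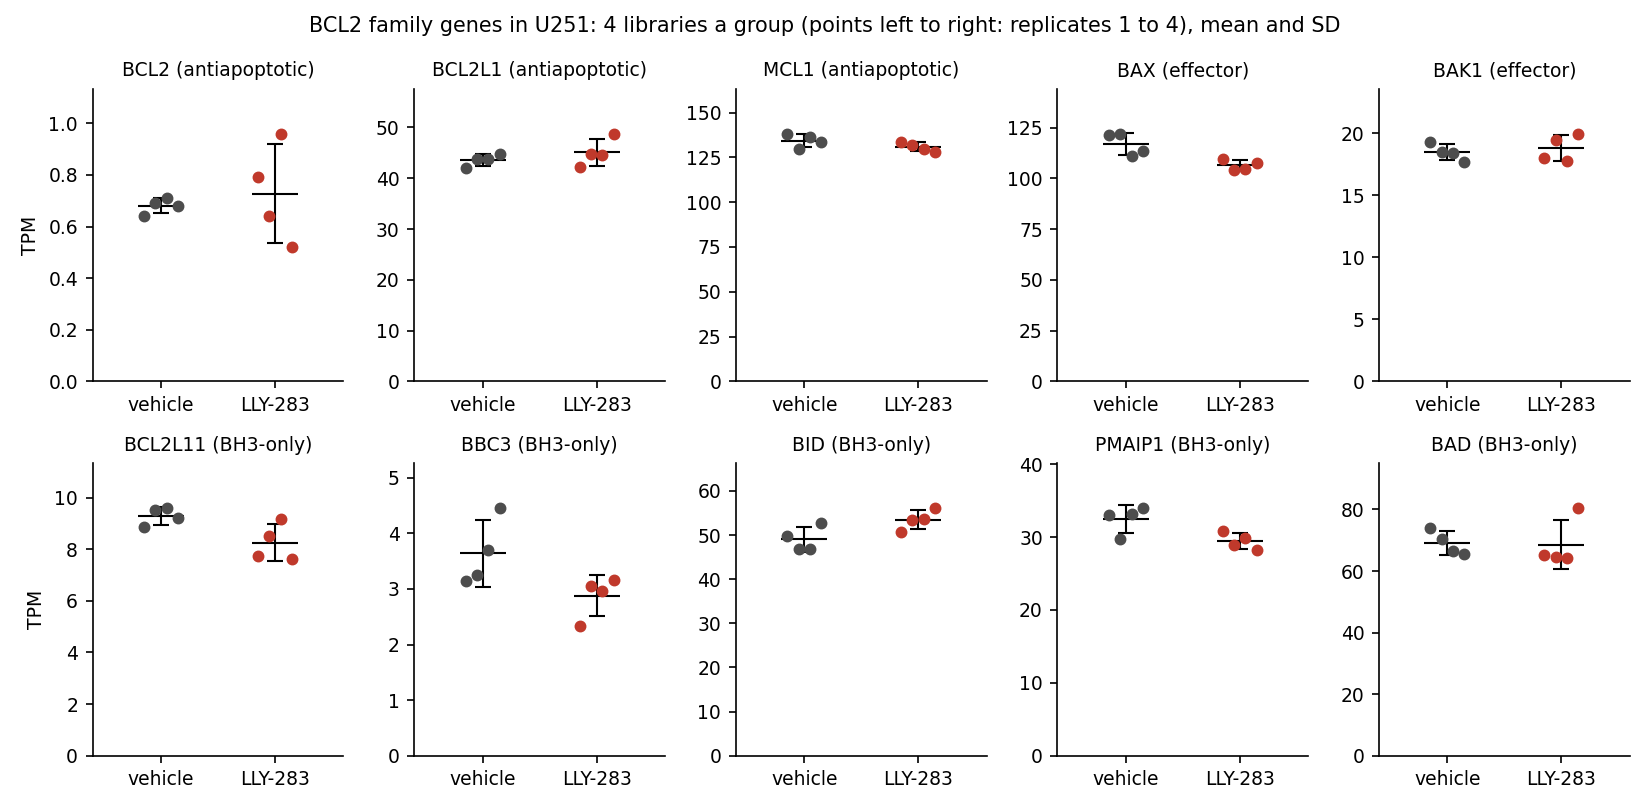
TPM of each BCL2 family gene in each library (vehicle grey, LLY-283 red, replicates 1 to 4 from left to right), with the mean and SD of each group and axes that start at 0. The BAX groups are apart (at least 111.04 TPM with vehicle, at most 109.66 TPM with LLY-283), while the other 9 genes overlap, and BAD has a single high value of 80.53 TPM in LLY-283 replicate 4.

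None of the BH3-only genes was called. PMAIP1 (ENSG00000141682, chr18:59899996-59904305, plus strand), which encodes NOXA, had 33.06, 29.76, 33.18 and 34.02 TPM with vehicle and 30.82, 28.92, 29.92 and 28.2 TPM with LLY-283. Only vehicle replicate 2 lay inside the LLY-283 range. The log2 difference was -0.14 (95% interval -0.25 to -0.03, adjusted p = 0.0656, limma), and without vehicle replicate 2 it was -0.18 (adjusted p = 0.0202).

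BCL2L11 (ENSG00000153094, chr2:111119378-111168444, plus strand), which encodes BIM, had 8.85, 9.51, 9.6 and 9.2 TPM with vehicle and 7.72, 8.52, 9.16 and 7.61 TPM with LLY-283. Only LLY-283 replicate 3 lay inside the vehicle range. The log2 difference was -0.17 (95% interval -0.33 to -0.01, adjusted p = 0.103, limma), and without LLY-283 replicate 3 it was -0.22 (adjusted p = 0.0453). With quantile normalization the BCL2L11 difference was -0.06 (adjusted p = 0.504, limma). All of BCL2L11 lies within the span of the long noncoding gene MIR4435-2HG on the opposite strand, which was more abundant and fell from 84.9 ± 1.49 to 77.3 ± 2.80 TPM (SD, n = 4 each, adjusted p = 0.0152, limma). The strandedness of the counting is not given in the sources used here, and the part of that gene in the BCL2L11 values was not tested.

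BBC3 (ENSG00000105327, chr19:47220822-47232766, minus strand), which encodes PUMA, had 3.14, 3.26, 3.7 and 4.46 TPM with vehicle and 2.34, 3.05, 2.97 and 3.17 TPM with LLY-283. Its groups met between 3.14 and 3.17 TPM. It had the largest difference among the 9 tested members, a log2 fold change of -0.32, and also the largest standard error, 0.142 (95% interval -0.64 to -0.005, adjusted p = 0.125, limma). Over the 20 alternatives in which it was tested, its adjusted p-value ran from 0.0752 to 0.516, and it was called in none. With quantile normalization the log2 fold change of BBC3 was -0.142, beside -0.137 for BAX.

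BID (ENSG00000015475, chr22:17734138-17774770, minus strand), whose product is cleaved by caspase-8 and so links death receptors to mitochondria, was the only BH3-only gene with a positive log2 fold change. It had 49.72, 46.91, 46.91 and 52.82 TPM with vehicle and 50.77, 53.37, 53.72 and 56.17 TPM with LLY-283. Vehicle replicate 4 lay above the lowest LLY-283 value. The log2 difference was 0.12 (95% interval 0.02 to 0.23, adjusted p = 0.0834, limma), positive in all 21 alternatives. BID was called in 3 of them by limma. With median-of-ratios scaling its log2 fold change was 0.17 (adjusted p = 0.0387), after removal of a trend on GC content and transcript length 0.14 (adjusted p = 0.0435) and without vehicle replicate 4 it was 0.16 (adjusted p = 0.0381).

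BAD (ENSG00000002330, chr11:64269830-64284704, minus strand) had 73.86, 70.39, 66.35 and 65.6 TPM with vehicle and 65.13, 64.53, 64.1 and 80.53 TPM with LLY-283. LLY-283 replicates 1 to 3 lay under all vehicle values, and replicate 4 above all of them. The log2 difference was -0.02 (95% interval -0.18 to 0.15, adjusted p = 0.903, limma) with all libraries and -0.09 (adjusted p = 0.136) without LLY-283 replicate 4. Almost the whole of BAD, 14643 of its 14875 bases, is overlapped on the opposite strand by GPR137, which had 43.2 TPM in LLY-283 replicate 4, inside the range of its other 7 libraries (35.82 to 45.47 TPM).

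LLY-283 replicate 4 held the highest or the lowest LLY-283 value for 9 of the 10 members, BAX being the exception. The other libraries held an extreme of their group for 1 to 7 members. The members highest in that library were BCL2L1, BAK1, BBC3, BID and BAD, and those lowest in it were BCL2, MCL1, BCL2L11 and PMAIP1. Without it BAX was still the only member called (log2 fold change -0.14, adjusted p = 0.0324, limma).

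BAX is set here beside PMAIP1 and BBC3, BH3-only genes whose lower means after LLY-283 were not called, to compare the sequence at their annotated starts. The RefSeq windows from 250 bases before to 50 bases after the annotated start are printed 5′ to 3′ on the strand of the gene. BAX lies at chr19:48954625-48954924 (plus strand), PMAIP1 at chr18:59899746-59900045 (plus strand) and BBC3 at chr19:47232618-47232917 (minus strand) of GRCh38.p14. Capitals mark the SP1 box (GGGCGG, or CCGCCC as its reverse complement) and the CCAAT box (CCAAT, or ATTGG), which do not overlap each other in these windows.
BAX: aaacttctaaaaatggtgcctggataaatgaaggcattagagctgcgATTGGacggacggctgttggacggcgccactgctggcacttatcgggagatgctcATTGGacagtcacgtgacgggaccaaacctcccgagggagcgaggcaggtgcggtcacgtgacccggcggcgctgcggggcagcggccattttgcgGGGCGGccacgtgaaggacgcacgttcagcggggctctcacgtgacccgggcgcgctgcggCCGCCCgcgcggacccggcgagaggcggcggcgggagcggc
PMAIP1: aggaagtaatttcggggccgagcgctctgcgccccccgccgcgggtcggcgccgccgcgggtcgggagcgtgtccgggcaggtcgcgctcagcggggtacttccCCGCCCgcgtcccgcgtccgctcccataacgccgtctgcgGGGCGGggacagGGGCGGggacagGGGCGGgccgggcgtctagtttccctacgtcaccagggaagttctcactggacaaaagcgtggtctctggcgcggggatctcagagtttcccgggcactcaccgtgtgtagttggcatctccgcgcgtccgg
BBC3: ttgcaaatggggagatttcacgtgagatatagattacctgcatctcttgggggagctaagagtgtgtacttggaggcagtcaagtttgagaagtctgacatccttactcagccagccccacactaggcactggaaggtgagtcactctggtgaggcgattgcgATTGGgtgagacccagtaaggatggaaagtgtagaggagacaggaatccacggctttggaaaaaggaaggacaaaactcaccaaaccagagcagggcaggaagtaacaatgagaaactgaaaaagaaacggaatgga

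The BAX window held 2 SP1 boxes and 2 CCAAT boxes, the PMAIP1 window 4 SP1 boxes and no CCAAT box, and the BBC3 window 1 CCAAT box and no SP1 box. Of all 35116 windows of this length, 45.0% held an SP1 box and 34.6% a CCAAT box. The BAX and PMAIP1 windows were GC-rich (67.3% and 71.3% GC, with 38 and 42 CG dinucleotides), against a median of 58.7% GC and 14 CG dinucleotides over all windows, whereas the BBC3 window had 48.0% GC and 5 CG dinucleotides. The window of BCL2L11, whose lower mean was not called either, had 74.7% GC, 39 CG dinucleotides, 3 SP1 boxes and 1 CCAAT box. RefSeq windows were at hand for 9 of the 10 members (not MCL1). Each window covers 1 annotated start, and its content can differ much between starts of the same gene. The windows of BID ran from 48.7% to 78.0% GC, with 0 to 4 SP1 boxes. Which starts are used in U251 was not measured, so the 1 window of BBC3 need not describe its promoter in these cells.

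Sums and ratios of the genes, computed within each library and given without a test, describe the balance of the family. The antiapoptotic genes summed to 179 ± 3.33 TPM with vehicle and 177 ± 0.993 TPM with LLY-283, and the BH3-only genes to 164 ± 4.50 and 163 ± 8.76 TPM (SD, n = 4 each). The effectors summed to 135 ± 6.02 TPM with vehicle, from 129.46 to 140.68 TPM, and to 125 ± 2.75 TPM with LLY-283, from 122.2 to 127.68 TPM, without overlap. This sum is mostly BAX. Relative to the antiapoptotic sum, the effectors stood at 0.759 ± 0.0425 with vehicle and 0.709 ± 0.0136 with LLY-283, in overlapping ranges. Transcripts of MCL1 were 3.08 ± 0.154 times as abundant as those of BCL2L1 with vehicle and 2.92 ± 0.222 times with LLY-283. The ratio of BID to BAX was 0.421 ± 0.0342 with vehicle and 0.503 ± 0.0268 with LLY-283, and its ranges met at 0.463 to 0.466.

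**Figure D4:**
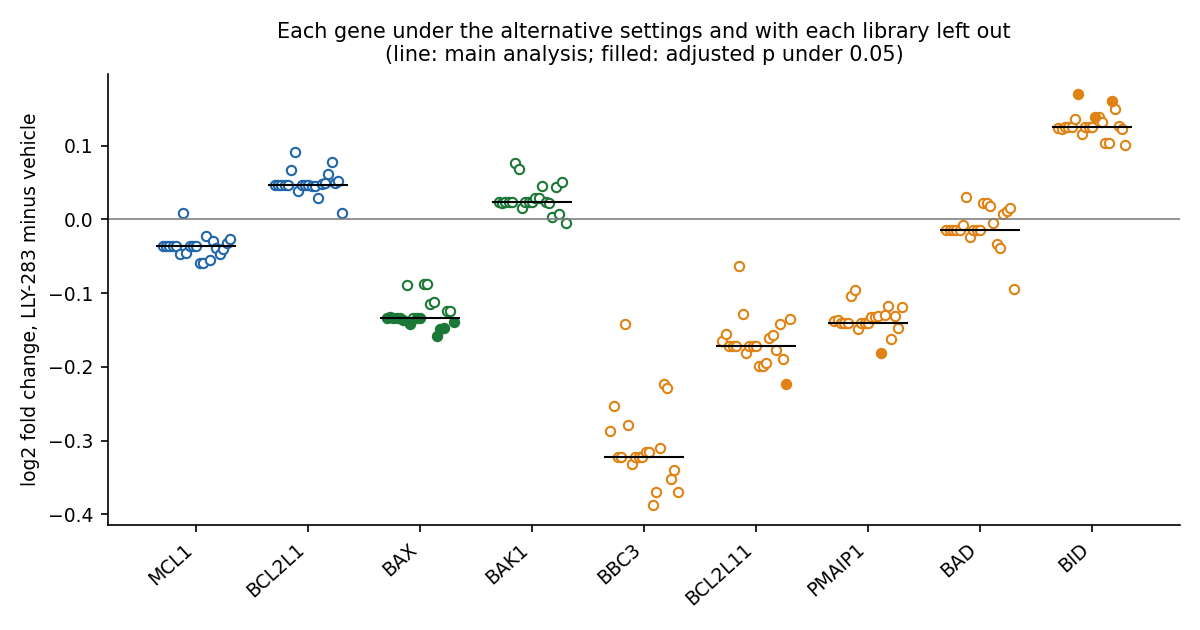
Log2 fold change of each tested BCL2 family gene (LLY-283 minus vehicle) under the alternative settings and with each library left out, 1 point each, filled where the adjusted p-value was under 0.05, with a line at the main value. BAX and the BH3-only genes BBC3, BCL2L11 and PMAIP1 stay under 0 and BID stays above 0, while BAD lies on both sides and BAX is filled in 12 of 21 points.

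Other genes of the pathway were followed in 7 lists of 83 genes, of which 70 were tested. Of these 70, 9 were called higher and 12 lower after LLY-283, 21 in all, against 26.2% of all genes tested, with a median log2 fold change of -0.04 beside -0.05 for all genes. The balance turned with the scaling: 17 were called higher and 7 lower with median-of-ratios scaling, and 13 and 12 with quantile normalization. The 21 called genes kept their direction in all 21 alternatives, and 11 of them were called in all 21. For each gene named with its values, calls lost to a left-out library or another scaling are given, and an adjusted p-value given as "up to" is the highest over all its alternatives.

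Among 16 further genes of the BCL2 family and its binding partners, 10 were tested, 1 was called higher and 2 lower (median log2 fold change -0.07). With median-of-ratios scaling, and without vehicle replicate 3, 2 were called higher and 0 lower. BNIP1, which acts in membrane fusion at the endoplasmic reticulum, rose from 12.6 ± 0.381 TPM with vehicle to 14.5 ± 0.213 TPM with LLY-283 (SD, n = 4 each, a log2 difference of 0.20, adjusted p = 0.00897, limma). BNIP3, a mitophagy receptor and hypoxia target, fell from 453 ± 6.59 TPM with vehicle to 418 ± 16.3 TPM with LLY-283 (log2 difference -0.12, adjusted p = 0.0223). BCL2L13, which also acts in mitophagy, fell from 80.7 ± 2.25 TPM with vehicle to 74.0 ± 2.61 TPM with LLY-283 (log2 difference -0.12, adjusted p = 0.0291). The calls of BNIP3 and BCL2L13 were lost with median-of-ratios scaling, that of BNIP3 also with a replicate block, and both without single libraries (either of vehicle replicates 3 and 4 or LLY-283 replicates 2 and 3, and for BNIP3 vehicle replicate 2, for BCL2L13 vehicle replicate 1), with adjusted p-values up to 0.142 and 0.140. BCL2A1 and BCL2L14 were listed at 0 in all libraries, and BCL2L10, BCL2L15, HRK and BMF had means under 1 TPM and were not tested.

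In the list of mitochondrial effectors and caspases, 14 of 15 genes were tested, with 3 called higher and 3 lower (median log2 fold change 0.04). VDAC2, a channel of the outer membrane that binds BAK1 and BAX, rose from 196 ± 7.82 TPM with vehicle to 227 ± 14.2 TPM with LLY-283 (SD, n = 4 each, a log2 difference of 0.21, adjusted p = 0.0100, limma). CYCS, cytochrome c, rose from 440 ± 13.8 TPM with vehicle to 479 ± 7.57 TPM with LLY-283 (log2 difference 0.12, adjusted p = 0.0123), a call lost on removal of the GC and length trend (adjusted p up to 0.159). DIABLO, which is released with cytochrome c and blocks inhibitors of apoptosis, rose from 63.4 ± 0.632 TPM with vehicle to 69.1 ± 3.04 TPM with LLY-283 (log2 difference 0.12, adjusted p = 0.0308), a call lost without any 1 of the vehicle replicates or of LLY-283 replicates 1 and 2 (adjusted p up to 0.0722). HTRA2, a mitochondrial protease that also blocks inhibitors of apoptosis, fell from 28.4 ± 1.05 TPM with vehicle to 22.3 ± 1.48 TPM with LLY-283 (log2 difference -0.35, adjusted p = 0.00164). HTRA2 overlaps AUP1 on the opposite strand over 165 bases, and AUP1 was at 127 TPM with vehicle and 158 TPM with LLY-283. CASP8, the initiator caspase of death receptors, fell from 23.4 ± 0.672 TPM with vehicle to 20.2 ± 1.09 TPM with LLY-283 (log2 difference -0.21, adjusted p = 0.0105). CASP6, an executioner caspase, fell from 40.3 ± 2.10 TPM with vehicle to 35.7 ± 1.92 TPM with LLY-283 (log2 difference -0.17, adjusted p = 0.0326), a call lost with quantile normalization, with median-of-ratios scaling and without any 1 of vehicle replicates 1 and 3 or LLY-283 replicates 2 and 4 (adjusted p up to 0.0857). Under both quantile normalization and median-of-ratios scaling, 6 genes of this list were called higher and 2 lower.

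Of 8 inhibitors of apoptosis, 6 were tested and none was called by limma, with log2 fold changes between -0.16 and 0.07. At an unadjusted p under 0.05 there were 0 of the 6 as well, against 38.6% of all genes tested. In the list of death receptors, ligands and adaptors, 8 of 11 genes were tested and 2 were called, both lower. RIPK1, a kinase recruited to death receptors, fell from 22.1 ± 0.373 TPM with vehicle to 18.6 ± 0.530 TPM with LLY-283 (SD, n = 4 each, a log2 difference of -0.25, adjusted p = 0.00168, limma). TRADD, an adaptor of the TNF receptor, fell from 17.0 ± 0.618 TPM with vehicle to 14.4 ± 0.431 TPM with LLY-283 (log2 difference -0.24, adjusted p = 0.00479). RIPK1, TRADD and CASP8 were called lower in all 21 alternatives.

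Of 8 transcription factors known to act on the members, 7 were tested, with 3 called, all lower (median log2 fold change -0.09). DDIT3, which encodes the stress factor CHOP and is known to induce BCL2L11 and BBC3, had 39.23, 40.01, 39.21 and 39.16 TPM with vehicle and 27, 27.69, 27.38 and 28.22 TPM with LLY-283 (log2 difference -0.51, adjusted p = 2.33e-05, limma). The 4 values of each group lay close together and the groups far apart. A second gene model on the same strand, ENSG00000285133, overlaps DDIT3 over 2769 bases. It was listed at 0, 0, 33.79 and 13.52 TPM with vehicle and at 47.1, 0, 0 and 36.85 TPM with LLY-283 (replicates 1 to 4). A division of reads between the models was not tested. The summed level of both models was 51.2 ± 15.8 TPM with vehicle and 48.6 ± 24.6 TPM with LLY-283 (SD, n = 4 each). That spread is mostly the second model's (SD 16.0 and 24.6 TPM), since DDIT3 had an SD of 0.406 and 0.516 TPM. The sum is thus too variable to show a fall such as that of DDIT3. On the opposite strand DDIT3 overlaps MARS1 over 982 bases (179 TPM with vehicle, 189 TPM with LLY-283) and MBD6 over 1028 bases (47.6 and 43.5 TPM). E2F1, which can induce several BH3-only genes, fell from 35.8 ± 0.550 TPM with vehicle to 28.1 ± 0.594 TPM with LLY-283 (SD, n = 4 each, a log2 difference of -0.35, adjusted p = 0.000139). ATF4 fell from 331 ± 7.04 TPM with vehicle to 313 ± 4.14 TPM with LLY-283 (log2 difference -0.08, adjusted p = 0.0377), a call lost in 12 of 21 alternatives (adjusted p up to 0.401), among them median-of-ratios scaling and those without any 1 of vehicle replicates 1, 2 and 4 or LLY-283 replicates 1 to 3. DDIT3 and E2F1 were called in all 21, and no gene of the 7 lists passed the rule that also asks for a change above 1.5-fold.

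Of 12 regulators of the member proteins, all tested, none was called, with log2 fold changes between -0.20 and 0.08. They include HUWE1, FBXW7, BTRC and MARCHF5, which mark MCL1 for degradation, USP9X, which removes that mark, and the kinases and 14-3-3 proteins that control BAD. At an unadjusted p-value under 0.05 there were 4 of the 12 (HUWE1, AKT1, YWHAE and MAPK8), against 38.6% of all genes tested. The alternatives called 0 to 2 genes of this list.

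Splicing factors known to act on BCL2L1 or MCL1 transcripts were all tested, and 7 of 13 were called, with 5 higher and 2 lower (median log2 fold change 0.08). Without vehicle replicate 2 or without vehicle replicate 4, 3 were called, all higher, and 4 without vehicle replicate 3 or with a replicate block. SRSF3 rose from 445 ± 11.1 TPM with vehicle to 536 ± 15.2 TPM with LLY-283 (SD, n = 4 each, a log2 difference of 0.27, adjusted p = 0.00034, limma), TRA2B from 249 ± 8.42 to 295 ± 2.91 TPM (0.25, adjusted p = 0.000456) and SRSF1, which favours the long forms of both transcripts, from 281 ± 7.82 to 317 ± 4.73 TPM (0.18, adjusted p = 0.00182). These 3 were called in all 21 alternatives. Another gene model on the same strand, ENSG00000266086, overlaps SRSF1 over 6328 bases and was at 14.5 TPM with vehicle and 10.8 TPM with LLY-283. SRSF5 fell from 262 ± 15.8 TPM with vehicle to 227 ± 16.4 TPM with LLY-283 (log2 difference -0.21, adjusted p = 0.0280) with overlapping groups, and RBM10, from 54.0 ± 0.480 TPM with vehicle, fell by 0.11 on the log2 scale (adjusted p = 0.0360). Both calls were lost without vehicle replicate 2, 3 or 4 or LLY-283 replicate 2, and with a replicate block, no filter or no eBayes trend. That of RBM10 was also lost without vehicle replicate 1 or LLY-283 replicate 1 or 3 and with median-of-ratios scaling. Over all 21 alternatives their adjusted p-values ran up to 0.0769 and 0.231. The other genes of this list called higher, KHDRBS1 and SF3B1, named here for completeness, were called in 17 and 13 of 21 alternatives. Which forms of BCL2L1 and MCL1 were made was not measured by gene-level TPM.

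**Figure D5:**
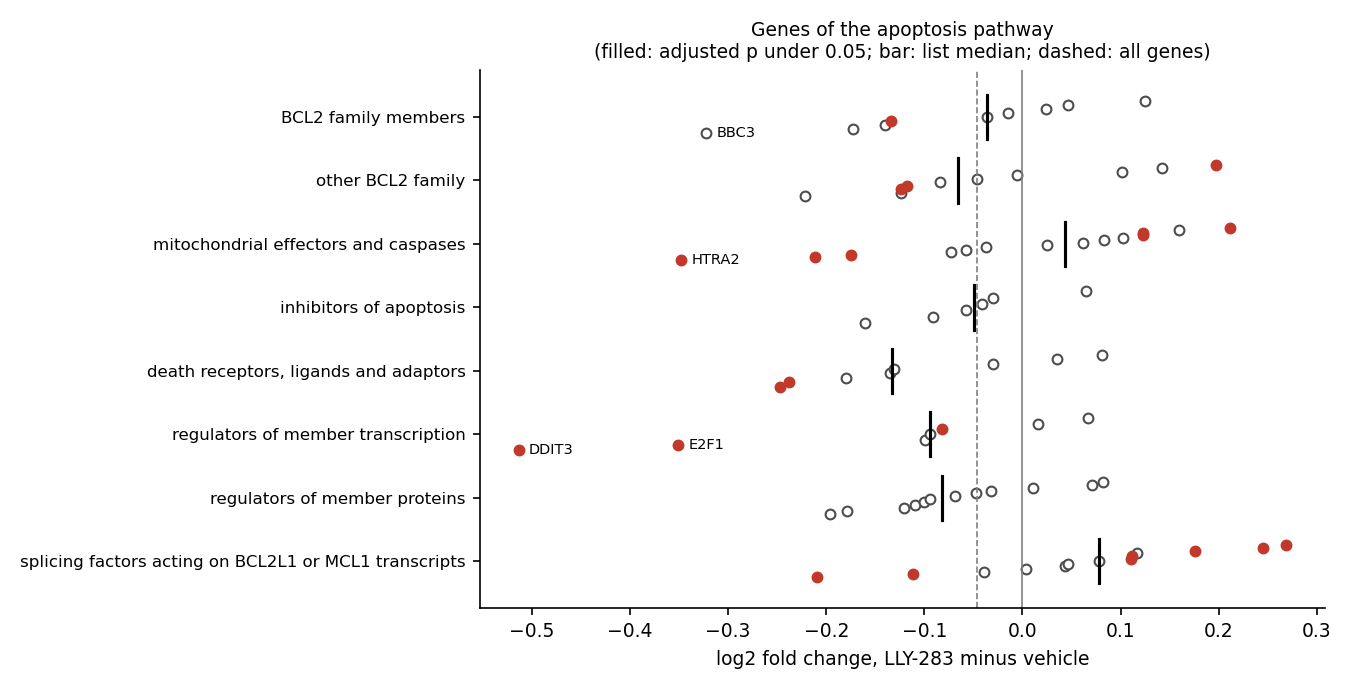
Log2 fold change (LLY-283 minus vehicle) of the tested BCL2 family members and of the tested genes of 7 pathway lists, 1 point per gene, red where the adjusted p-value was under 0.05, with a bar at each list's median and a dashed line at the median of all genes tested (-0.05). DDIT3 at -0.51 lies farther from 0 than any BCL2 family member, and BBC3 at -0.32 is the farthest member.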

How the data were processed

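RNA of 4 vehicle and 4 LLY-283 cultures of U251 cells was captured by poly(A) and sequenced. According to the submitters' processing notes and the study's methods, the authors trimmed reads with Cutadapt 1.18, aligned them with STAR 2.7.0f to hg38 and estimated gene abundances with RSEM 1.3.1 (the methods give other versions of both) with the annotation of GENCODE release 41, and deposited TPM values with 2 decimals, 1 column per library. TPM divide read numbers by transcript length and scale each library to the same total, so depth is unknown and a large change in a few abundant genes shifts all others.

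The members and lists were chosen with earlier results of these data known, and 2 genes of the lists are not reported here. Groups were taken from the treatment labels. Genes averaging 1 TPM or more over the 8 libraries (14478 of 61906, with 30435 at 0 in all libraries) were compared on log2(TPM + 0.1) with limma 3.58.1 in R 4.3.3 (eBayes with a trend, two-sided), with Benjamini-Hochberg adjustment over all genes tested, and fold changes are on that scale. Every p-value printed is from limma fitted across all genes. The sources call the libraries biological replicates of 1 cell line. Named genes were the 10 members, up to 3 called genes per direction in each list, by lowest p-value, untested genes of the list of other BCL2 family genes, and genes that overlap a named gene. HUWE1, AKT1, YWHAE, MAPK8, KHDRBS1 and SF3B1 were named after their values were seen, as were the markers GFAP, VIM, NES, SOX2, SOX9, S100B, CD44, SYT1 and CD3E. Alternatives were other pseudocounts (0.5 and 1), filters (no filter, a mean of at least 5 TPM, at least 1 TPM in 4 libraries), scalings (quantile, median of ratios, without the mitochondrial genome), eBayes settings, a replicate block, removal of a trend on GC content and transcript length by splines with 4 degrees of freedom (14457 genes with both), and leaving out each library. The test was checked on simulated data.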

Additional observations from a re-analysis of the deposited data

Results flagged for a closer look

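In 4 of 62 groups of 4 libraries (31 genes, the members and the called genes of the lists, in each treatment), 1 library lay far from the other 3 relative to the range of the group. Chance alone gives this in about 1 in 20 groups. BAD was at 80.53 TPM in LLY-283 replicate 4 and at 64.1 to 65.13 TPM in the other 3. In the same library CYCS was at 490.26 TPM, against 474.01 to 476.06 TPM, and VDAC2 at 247.95 TPM, against 217.75 to 222.5 TPM. This was the library in which genes of the mitochondrial genome took 7.19% of the TPM, and the part of that difference in these values was not tested. DDIT3 was at 40.01 TPM in vehicle replicate 2, against 39.16 to 39.23 TPM.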

How the results depend on the processing

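Of 188 recomputed member values, 165 kept both direction and side of the threshold, 9 kept the direction but lost the call, 5 gained a call and 9 changed sign. The sign changed for members near 0: with median-of-ratios scaling the log2 fold change was 0.0083 for MCL1 and 0.0297 for BAD, and with the GC and length trend removed it was 0.0220 for BAD, with or without the replicate block. Leaving out single libraries moved BAD from -0.0946 to 0.0177 and BAK1 from -0.0057 to 0.0501. The cause was not tested. Limma called 0 members without a filter, 0 with eBayes without a trend and 0 with the replicate block and the trend removed. The number was 0 to 2 when 1 library was left out. Of all genes, 9.44%, 23.7%, 20.7% and 19.3 to 28.9% were called in these settings. BAX stayed at -0.1336 without a filter (adjusted p = 0.0603) and with eBayes without a trend (0.0594), and was at -0.0881 with the GC and length trend removed, with the replicate block (0.118) or without it (0.122). With median-of-ratios scaling 0 members had groups without overlap (29.6% of all genes), and without the mitochondrial genome 2 had (BAX and BBC3, 29.2% of all genes). Without a filter 2971 of 31471 genes were called, against 3788. Deviations from the group mean did not go together in same-numbered libraries (correlations -0.085 to 0.032, none best with its own number). Whether such libraries shared a batch or day is not stated and cannot be told from these correlations. With the replicate block alone, BAX was at -0.1336 (adjusted p = 0.0384) and was the 1 member called, and 22.8% of genes were called. Depth is unknown, and BCL2 under 1 TPM could not be compared to better than -0.46 to 0.57 on the log2 scale.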
